A study of Homo sapiens with 48 samples.

Results

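RNA levels of 10 genes of the YAP/TAZ–TEAD axis were examined in cytokine-stimulated human fibroblasts with perturbed GLIS3. They are the target genes CTGF (CCN2), CYR61 (CCN1), ANKRD1, AMOTL2 and AXL, the DNA-binding factors TEAD1, TEAD3 and TEAD4, and the coactivators YAP1 and WWTR1 (the gene of TAZ). They were chosen by name, and their rows were taken from a table of 29744 genes. All 10 passed the filter on low counts in both arms, in which 10962 and 10980 genes were tested.

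The cells were immortalized human skin fibroblasts (CRL-4001) carrying mNeonGreen as a fluorescent reporter at IL11, expanded from single-cell clones. In the CRISPRko arm, with Cas9, H47_Ctrl is the control and H47_KO carries a GLIS3 guide. In the CRISPRa arm, with dCas9–VP64 (inactive Cas9 fused to a transcriptional activator), the groups are VP64_Ctrl and VP64_A. All 4 groups of cells received TGFβ and IL-1β at 10 ng per ml for 0, 6, 12 or 24 h, with 3 libraries for each of the 16 conditions and 48 in all. The guides came by lentivirus and the cells were kept as selected populations, so a knockout library can hold cells with different edits. The study's reporting statement describes its in vitro replicates as biological and independent. The labels do not say that the 3 libraries of a condition came from separate cultures, and if they did not, p-values measure only the spread between these libraries, which may then be technical.

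GLIS3 itself was measured first. In normalised CPM (counts scaled to TMM-normalised library sizes), GLIS3 lay between 1.45 and 6.47 in the 12 libraries of H47_Ctrl and between 0.144 and 1.63 in H47_KO. It lay between 1.91 and 6.31 in VP64_Ctrl and between 16.6 and 36.7 in VP64_A. The CRISPRa titles name as control the group that the descriptions call VP64_A, and GLIS3 goes with the descriptions, which are used here. Read by the titles, every CRISPRa difference below would change sign. The cell-line label is the same text in all 48 libraries, naming Cas9 and a GLIS3 knockout also for the controls and the CRISPRa arm.

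Estimated counts summed to between 2321990 and 10661004 per library, with a median of 5139646. Of the fibroblast markers, 8 of 8 had a median above 1 TPM (a level per transcript length), and their sum lay between 11286 and 32018 TPM. The endothelial markers summed to at most 0.615 TPM, the epithelial markers to at most 78.9 TPM, nearly all of it KRT14, and the leukocyte markers to between 13.6 and 69.6 TPM, nearly all of it CD68. EPCAM and CD3E were at 0. Library 3 of VP64_Ctrl at 0 h stood apart from its 2 partners for several of the 10 genes, and calls of these genes that are lost without it are given with and without it. Values of genes outside the 10 are given with all libraries.

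In the Hippo pathway the kinases STK3 and STK4 activate LATS1 and LATS2, which phosphorylate YAP and TAZ and keep them out of the nucleus. Unphosphorylated YAP and TAZ enter the nucleus and bind TEAD factors, which recognise the bases GGAATG and recruit these coactivators to promoters and enhancers. CTGF, CYR61 and ANKRD1 are widely used readouts of this activity, and in fibroblasts CTGF is also a classical TGFβ-induced matricellular protein. Much of the control of YAP and TAZ is through phosphorylation and localisation, which RNA levels do not measure.

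The upstream windows of CTGF and ANKRD1 are printed because they held the most GGAATG matches among the genes searched. RefSeq windows (GRCh38.p14) were found for 7 of the 10 genes, and the 250 bases before the start site were searched on both strands for GGAATG. These letters occurred in 11.9% of all 35116 windows of the same length. Only 0.0826% of windows held 3 or more matches and 0.94% held 2 or more. The sequences below run 5′ to 3′ on the gene's strand with the matches in capitals, the CTGF window lying at chr6:131951373-131951622 (minus strand) and the ANKRD1 window at chr10:90921088-90921337 (minus strand).
CTGF: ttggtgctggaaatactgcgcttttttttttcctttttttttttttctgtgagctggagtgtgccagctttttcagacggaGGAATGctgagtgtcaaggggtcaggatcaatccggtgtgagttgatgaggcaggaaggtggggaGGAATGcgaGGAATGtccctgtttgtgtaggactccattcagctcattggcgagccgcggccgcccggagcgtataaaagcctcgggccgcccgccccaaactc
ANKRD1: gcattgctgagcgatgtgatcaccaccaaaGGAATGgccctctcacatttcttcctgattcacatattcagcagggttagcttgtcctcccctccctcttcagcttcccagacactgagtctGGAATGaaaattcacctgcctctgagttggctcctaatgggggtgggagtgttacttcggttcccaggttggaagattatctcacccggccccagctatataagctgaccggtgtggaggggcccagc

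The CTGF window held 3 matches, which begin 169, 104 and 95 bases before the start, and the ANKRD1 window held 2, at 220 and 128 bases. The ANKRD1 window also held 1 match to TGANTCA, a loose form of the AP-1 motif in which N is any base. This match reads TGATTCA and begins at 195 bases, and 6.57% of all windows contain a match to TGANTCA. Of the other members, YAP1 held 1 match at 162 bases, and AMOTL2 and AXL held 1 each in 1 of their 2 windows, at 69 and 212 bases. The windows of TEAD3 and WWTR1 held none. A match is a run of letters and no measurement of binding. CYR61, TEAD1 and TEAD4 were not searched.

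In GENCODE v44 (GRCh38), CTGF spans chr6:131948176-131951372 (minus strand) and CYR61 chr1:85580761-85584589 (plus strand). WWTR1 spans chr3:149517235-149736714 (minus strand), YAP1 chr11:102110447-102233424 (plus strand) and AXL chr19:41219223-41261766 (plus strand). The TEAD genes lie on chromosomes 11 (TEAD1), 6 (TEAD3) and 12 (TEAD4). Of the 10 members, 4 have an exon that overlaps a gene on the opposite strand (CTGF, WWTR1, YAP1 and AXL). The partners LINC01013 (of CTGF) and WWTR1-AS1 (of WWTR1) had at most 6 and 3 counts in any library. The counting strand is not given in the sources used here, so reads from these pairs cannot be told apart. AMOTL2 has an exon that overlaps RPL39P5 on the same strand, and 5 members have no overlapping exon.

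The 10 genes differed widely in level. Over the 48 libraries the median was 3599 TPM for CTGF, 1614 TPM for CYR61 and 240 TPM for AXL, and the first of these stood at the 99.8 percentile of genes with any count. AMOTL2 followed with a median of 36.2 TPM. The TEAD factors and WWTR1 lay together, with medians of 8.83 TPM for TEAD3, 6.59 for TEAD4, 6.39 for TEAD1 and 4.97 for WWTR1, and their ranges overlapped. YAP1 had a median of 1.56 TPM and ANKRD1 of 0.768 TPM. ANKRD1 had between 0 and 48 counts per library, so its fold changes are the least precise of the set.

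The levels of CTGF also differed between the arms before stimulation. At 0 h CTGF stood at 2354 ± 852 TPM (SD, n = 3) in H47_Ctrl, with libraries between 1787 and 3333 TPM. In VP64_Ctrl its libraries lay between 656 and 901 TPM, so the control groups of the arms did not overlap. The arms are different cell populations, and this difference was not tested. Normalised CPM was scaled within each arm, so no CPM is compared between arms below.

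**Figure D1:**
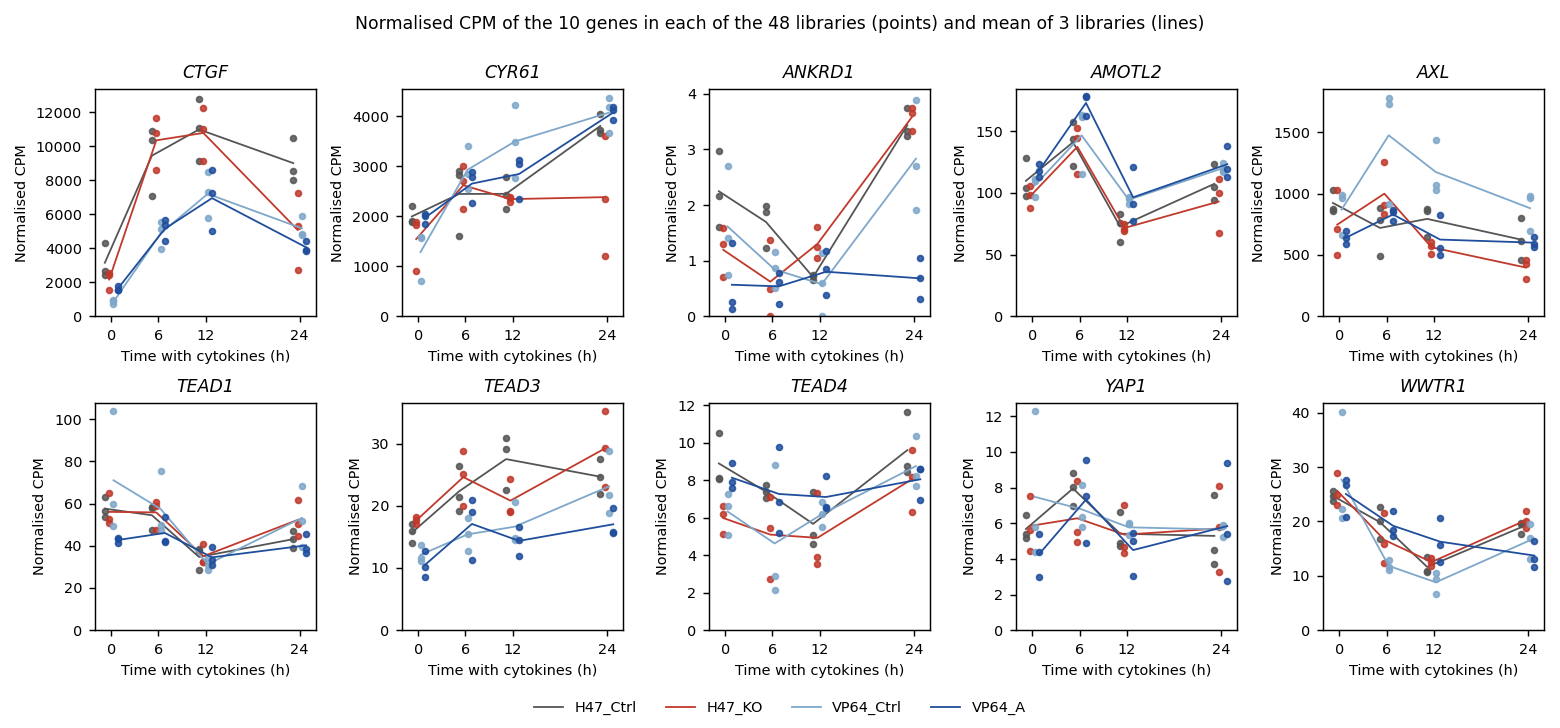
Normalised CPM (vertical axes, from 0) of the 10 genes against hours with TGFβ and IL-1β in H47_Ctrl, H47_KO, VP64_Ctrl and VP64_A; points are single libraries, shifted sideways for legibility, and lines join means of 3 libraries. CPM was scaled within each arm. CTGF is lowest at 0 h in every group of cells, and 1 library of VP64_Ctrl at 0 h lies above all others of the CRISPRa arm for TEAD1 (104), YAP1 (12.3) and WWTR1 (40.1).

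The first comparison asked which of the genes respond to TGFβ and IL-1β in each group of cells. CTGF rose at all 3 times in all 4 groups, in 12 of 12 contrasts, by 1.23 to 3.07 on the log2 scale. CYR61 rose in 5 of 12 and TEAD3 in 6 of 12, whereas WWTR1 fell in 7 of 12 and TEAD1 in 3 of 12, all at 12 h. TEAD4 and YAP1 passed the test in 0 of 12 contrasts each. Over all 120 gene and contrast pairs 41 were called, 28 higher and 13 lower (quasi-likelihood test of edgeR with adjusted p under 0.05), beside 11.6% of all gene and contrast pairs called higher and 7.96% lower (19.6% in all). The 3 times of a group are compared with the same 0 h libraries and are not independent.

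In H47_Ctrl the calls numbered 1 of 10 at 6 h, 5 at 12 h and 3 at 24 h, beside 15.9%, 19.6% and 10.3% of all genes tested. In H47_KO the calls were 3, 4 and 4, beside 23.9%, 27.4% and 15.8%. In VP64_Ctrl they numbered 5, 4 and 4, beside 28.8%, 26.8% and 16% of all genes. In VP64_A they numbered 3, 1 and 4, beside 17.4%, 19.7% and 13.6%. The median log2 fold change of the 10 genes lay between −0.40 (H47_Ctrl, 12 h) and 0.40 (VP64_A, 6 h), where the medians of all genes were −0.01 in both.

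**Figure D2:**
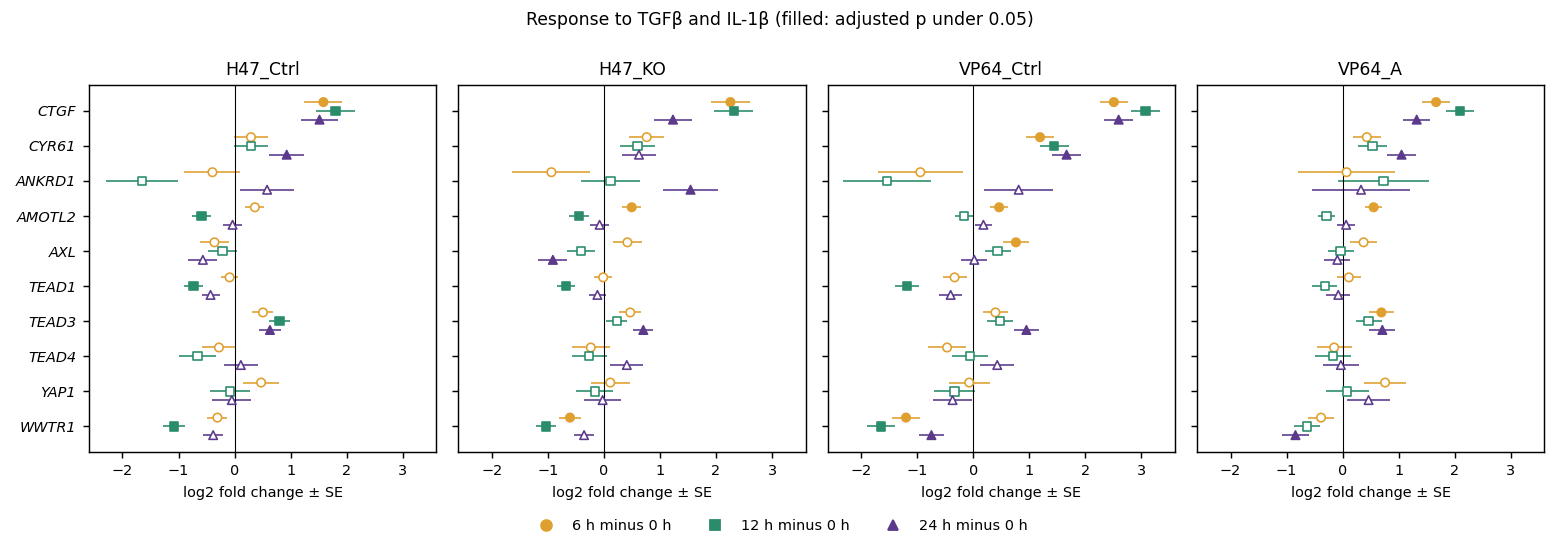
Log2 fold change against 0 h (horizontal axes, ± SE) of the 10 genes at 6, 12 and 24 h with cytokines, one panel for each group of cells; filled symbols have an adjusted p under 0.05. CTGF is filled in all 12 positions, all WWTR1 points lie below 0, and no TEAD4 or YAP1 point is filled.

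CTGF, the matricellular protein, was the gene with the largest response. In H47_Ctrl its normalised CPM was 4327, 2676 and 2454 at 0 h, 7059, 10925 and 10395 at 6 h, 9139, 11087 and 12774 at 12 h, and 8526, 10505 and 8023 at 24 h. In H47_KO it was 2531, 2449 and 1521 at 0 h, 10772, 11662 and 8642 at 6 h, 11018, 9133 and 12238 at 12 h, and 7246, 5298 and 2728 at 24 h. No stimulated library of either group overlapped its 0 h libraries, and the 24 h libraries of H47_KO spread widely.

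In the CRISPRa arm CTGF also rose at each time in both groups. In VP64_Ctrl its normalised CPM was 965, 881 and 726 at 0 h, 3936, 5140 and 5556 at 6 h, 7342, 5772 and 8517 at 12 h, and 4797, 5889 and 4842 at 24 h. In VP64_A it was 1551, 1520 and 1802 at 0 h, 4425, 5400 and 5650 at 6 h, 8589, 5034 and 7249 at 12 h, and 3883, 4438 and 3857 at 24 h. The mean was highest at 12 h in each of the 4 groups. The 12 h and 24 h libraries did not overlap in VP64_A or in H47_KO, and overlapped in both control groups.

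The log2 fold change of CTGF at 12 h was 1.80 (SE 0.34, edgeR adjusted p = 0.000165) in H47_Ctrl and 2.32 (SE 0.35, adjusted p = 3.86e-06) in H47_KO. It was 3.07 (SE 0.26, adjusted p = 4.92e-11) in VP64_Ctrl and 2.10 (SE 0.25, adjusted p = 8.57e-08) in VP64_A. The 24 h response in H47_KO, 1.23 (SE 0.34, adjusted p = 0.00939), was the smallest. It lost its call without library 1 of H47_KO at 24 h (0.89, adjusted p = 0.068) and in a fit of only the libraries compared (adjusted p = 0.163). The other 11 responses of CTGF kept their call with each library left out in turn.

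CTGF took a larger part of the counts at 12 h than at 0 h, and a smaller part at 24 h than at 12 h, by the means of all 4 groups. Its share of all estimated counts was 0.343% ± 0.114 (SD, n = 3) at 0 h and 1.06% ± 0.097 at 12 h in H47_Ctrl. In VP64_Ctrl the share went from 0.122% ± 0.014 to 0.661% ± 0.0311. At 24 h it was 0.834% ± 0.0612 in H47_Ctrl and 0.549% ± 0.0741 in VP64_Ctrl. The smallest 12 h value (0.951% in H47_Ctrl, 0.625% in VP64_Ctrl) was above the largest 0 h value in each group.

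CYR61, a matricellular relative of CTGF, had smaller fold changes. In VP64_Ctrl its normalised CPM was 1566, 1584 and 703 at 0 h, 2555, 3397 and 2845 at 6 h, 3489, 2764 and 4234 at 12 h, and 4362, 4193 and 3665 at 24 h. It rose there by 1.19 (SE 0.25, adjusted p = 0.000607), 1.44 (SE 0.26, adjusted p = 5.57e-05) and 1.66 (SE 0.26, adjusted p = 9.81e-06) on the log2 scale. Without library 3 at 0 h, the lowest, the responses were 0.87, 1.12 and 1.35 and kept their calls.

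In VP64_A the CPM of CYR61 was 2054, 1846 and 2005 at 0 h and 3923, 4178 and 4130 at 24 h, a rise of 1.05 (SE 0.25, adjusted p = 0.00355). In H47_Ctrl it was 2205, 1901 and 1888 at 0 h and 3661, 4041 and 3720 at 24 h, a rise of 0.93 (SE 0.31, adjusted p = 0.0496). These groups did not overlap, yet the H47_Ctrl call was lost in 20 of 24 fits with 1 library left out, in which the adjusted p reached 0.161. In H47_KO the CPM was 1888, 1833 and 913 at 0 h and 3602, 2351 and 1198 at 24 h, and the groups overlapped (0.63, SE 0.31, adjusted p = 0.179).

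The balance of these 2 genes was described by their TPM. CTGF was 59.8% ± 5.18 (SD, n = 3) of the summed TPM of both genes at 0 h in H47_Ctrl and 81.4% ± 0.615 at 12 h. In VP64_Ctrl the share was 41% ± 8.07 at 0 h and 66.9% ± 0.534 at 12 h. By 24 h the share was lower again, at 69.7% ± 1.97 and 55.3% ± 3.15. These shares are descriptions and were not tested.

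Of the other targets, AMOTL2, an angiomotin-like protein that binds YAP, moved up at 6 h and down at 12 h. It rose at 6 h in H47_KO (0.50, SE 0.17, adjusted p = 0.0329), VP64_Ctrl (0.46, SE 0.15, adjusted p = 0.0244) and VP64_A (0.55, SE 0.15, adjusted p = 0.0103). In VP64_A its CPM was 113, 123 and 118 at 0 h and 178, 163 and 178 at 6 h, without overlap. It fell at 12 h in H47_Ctrl by 0.59 (SE 0.17, adjusted p = 0.0141) and in H47_KO by 0.44 (SE 0.17, adjusted p = 0.0499).

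The VP64_A call at 6 h held with each library left out. The calls in H47_KO at 6 h and VP64_Ctrl at 6 h were each lost in 4 of 24 such fits, with the adjusted p reaching 0.114 without library 1 of H47_KO at 6 h and 0.126 without library 2 of VP64_Ctrl at 6 h. Without library 3 of VP64_Ctrl at 0 h the VP64_Ctrl value was 0.46 (adjusted p = 0.0531). The 12 h call in H47_KO was lost in 22 of 24. The 12 h call in H47_Ctrl was lost without library 3 at 0 h (adjusted p = 0.0957) or library 1 at 12 h (adjusted p = 0.107). On log2(TPM + 1) the 6 h value of AMOTL2 in VP64_Ctrl was −0.29, where the median of all genes was −0.65. On that scale the 6 h values in H47_KO (0.04) and VP64_A (0.29) were not called, and the medians of all genes there were −0.43 and −0.21.

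AXL, a receptor tyrosine kinase, was called in 2 of 12 contrasts. In VP64_Ctrl its CPM was 961, 987 and 662 at 0 h and 915, 1734 and 1779 at 6 h, a called rise of 0.76 (SE 0.23, adjusted p = 0.0144) although the groups overlapped. The call was lost without library 3 at 0 h (0.57, adjusted p = 0.09) and without library 2 or 3 at 6 h (adjusted p = 0.0838 and 0.0879), and the value on log2(TPM + 1) was 0.06 (adjusted p = 0.796), where the median of all genes was −0.65. In H47_KO its CPM was 1034, 710 and 499 at 0 h and 462, 425 and 306 at 24 h, a fall of 0.91 (SE 0.26, adjusted p = 0.0125). That call was lost without library 1 at 0 h (adjusted p = 0.156) or library 3 at 24 h (adjusted p = 0.0835).

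ANKRD1, a cardiac and muscle ankyrin repeat protein, was near the limit of detection. It rose in H47_KO at 24 h, with CPM of 0.707, 1.3 and 1.58 at 0 h and 3.65, 3.34 and 3.74 at 24 h (1.55, SE 0.48, adjusted p = 0.025). The call was lost in 4 of 24 fits, with the largest adjusted p (0.127) without library 1 at 0 h. In the other 3 groups no contrast of ANKRD1 was called.

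Among the DNA-binding factors TEAD3 rose and TEAD1 fell. In H47_Ctrl the CPM of TEAD3 was 17, 15.9 and 14 at 0 h and 30.9, 29.1 and 22.5 at 12 h, a rise of 0.80 (SE 0.19, adjusted p = 0.00271) that held with each library left out. At 24 h TEAD3 was called in all 4 groups, by 0.63 (adjusted p = 0.0293) in H47_Ctrl, 0.70 (adjusted p = 0.00599) in H47_KO, 0.95 (adjusted p = 0.00215) in VP64_Ctrl and 0.71 (adjusted p = 0.0359) in VP64_A. The calls in H47_KO and VP64_Ctrl held with each library left out. Those in H47_Ctrl and VP64_A were each lost in 5 of 24 such fits, with adjusted p up to 0.132 (without library 2 of H47_Ctrl at 24 h) and 0.195 (without library 3 of VP64_A at 24 h). With limma on log2(TPM + 1) none of the 6 calls of TEAD3 was made, and the 12 h value in H47_Ctrl was 0.57 (adjusted p = 0.166), where the median of all genes was −0.15. The remaining call, in VP64_A at 6 h (0.69, SE 0.23, adjusted p = 0.0334), was lost in 4 of 24 fits (adjusted p up to 0.182, without library 3 at 6 h).

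TEAD1 was at its lowest at 12 h. In H47_Ctrl its CPM was 62.9, 56.3 and 53.5 at 0 h and 28.3, 37.3 and 38.4 at 12 h, so it fell by 0.73 (SE 0.17, adjusted p = 0.00136). In H47_KO it fell by 0.67 (SE 0.16, adjusted p = 0.00148). In VP64_Ctrl its CPM was 60, 49.2 and 104 at 0 h and 28.6, 31 and 34.1 at 12 h, a fall of 1.18 (SE 0.22, adjusted p = 0.0001). Without the library at 104 the change was −0.84 (adjusted p = 0.00252), and all of these calls held with each library left out. In VP64_A the values were 41.2, 43.8 and 43.2 at 0 h and 39.5, 33 and 30.9 at 12 h, a difference of −0.32 (SE 0.22, adjusted p = 0.34) that was not called although the groups did not overlap.

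TEAD4 lay between 2.74 and 11.7 CPM in the CRISPRko arm and between 2.15 and 10.4 CPM in the CRISPRa arm. Its fold changes against 0 h lay between −0.66 and 0.43. Within the TEAD family the share of TEAD3 was higher at 12 h than at 0 h in each group. In H47_Ctrl TEAD3 was 31.3% ± 1.44 (SD, n = 3) of the summed TPM of TEAD1 to TEAD4 at 0 h and 55.4% ± 3.52 at 12 h. TEAD1 went from 34.5% ± 0.741 to 21.2% ± 5.13 over the same hours. In VP64_Ctrl TEAD3 went from 26.7% ± 1.82 to 44.1% ± 5.74. TEAD2 stayed at or under 7.61% in every library. These shares were not tested.

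**Figure D3:**
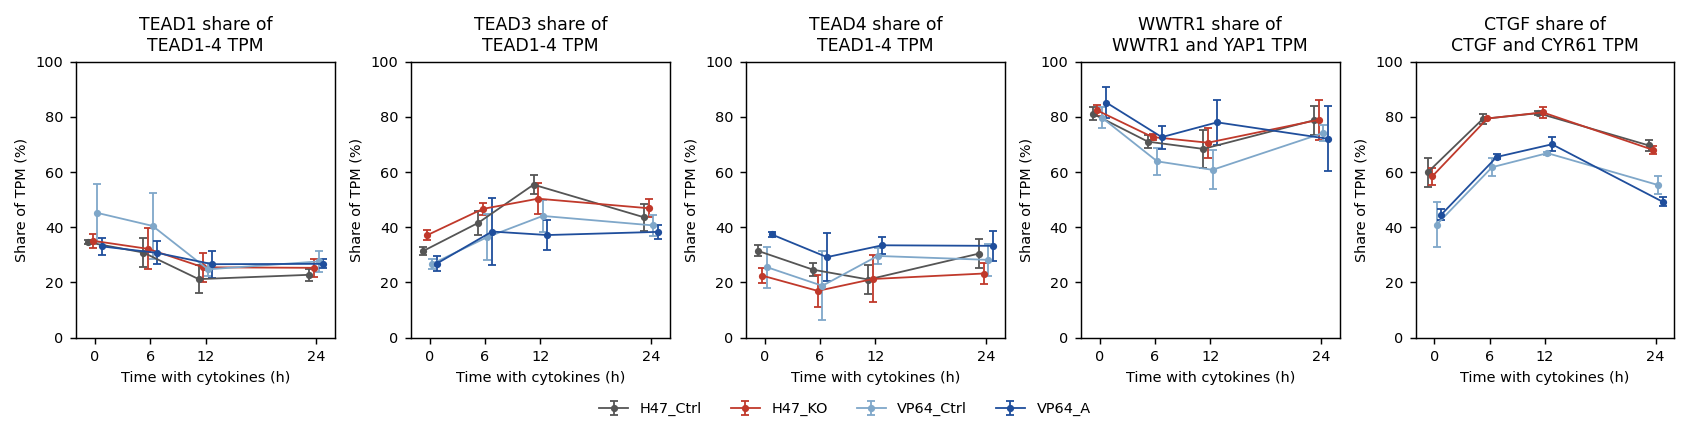
Shares of summed TPM (vertical axes, 0 to 100%, mean ± SD of 3 libraries) against hours with cytokines in the 4 groups of cells, for TEAD1, TEAD3 and TEAD4 within the TEAD family, WWTR1 within WWTR1 and YAP1, and CTGF within CTGF and CYR61. The TEAD3 share is higher at 12 h than at 0 h in each group, as is the CTGF share (59.8% to 81.4% in H47_Ctrl).

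Of the coactivators, WWTR1 fell and YAP1 was not called. In H47_Ctrl the CPM of WWTR1 was 23.8, 24.6 and 25.7 at 0 h and 10.7, 10.8 and 13.4 at 12 h, a change of −1.08 (SE 0.20, adjusted p = 0.000107). In H47_KO it was 23, 25 and 29 at 0 h and 13.2, 11.8 and 12.5 at 12 h (−1.03, SE 0.18, adjusted p = 4.44e-05). In VP64_Ctrl it was 20.7, 22.3 and 40.1 at 0 h, 11.6, 12.9 and 11 at 6 h, and 10.5, 6.57 and 9.38 at 12 h. The stimulated libraries did not overlap those at 0 h in any of these contrasts.

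In VP64_Ctrl WWTR1 changed by −1.20 (SE 0.25, adjusted p = 0.000396) at 6 h and −1.65 (SE 0.25, adjusted p = 5.13e-06) at 12 h. Without the library at 40.1 the changes were −0.88 and −1.32, both still called. Its 24 h change of −0.75 (adjusted p = 0.0231) became −0.41 (adjusted p = 0.238) without that library and was also lost without library 1 at 24 h (adjusted p = 0.153). In VP64_A WWTR1 was called at 24 h (−0.84, SE 0.24, adjusted p = 0.0143), a call lost in 4 of 24 fits with 1 library left out (adjusted p up to 0.0739, without library 2 at 24 h). In H47_KO at 6 h (−0.61, adjusted p = 0.0181) it was lost in 3 of 24 (adjusted p up to 0.16, without library 2 at 6 h).

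YAP1 lay between 3.26 and 8.84 CPM in the CRISPRko arm and between 2.75 and 12.3 CPM in the CRISPRa arm. Its fold changes against 0 h lay between −0.37 and 0.76. With 8 to 104 counts per library, a small change of YAP1 was not detectable at this depth. WWTR1 made up 81.2% ± 2.29 (SD, n = 3) of the TPM of both coactivators at 0 h in H47_Ctrl and 68.4% ± 6.79 at 12 h.

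The second comparison asked what the GLIS3 guide changed in the CRISPRko arm. None of the 10 genes was called at any time or averaged over the 4 times, by edgeR, DESeq2 or limma. Of all genes tested, 0.301%, 0.319%, 0.0821% and 0.21% were called at the 4 times and 3.07% for the mean, so few genes of any kind passed in this arm. At an unadjusted p under 0.05 edgeR gave 0 of 10 at 0 h, 1 at 6 h, 1 at 12 h, 3 at 24 h and 1 for the mean of 4 times. The share of all genes at that unadjusted threshold was not counted, here or below, so such counts stand without a background.

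The 3 genes with an unadjusted p under 0.05 at 24 h were CTGF, CYR61 and AXL. CTGF, with the 24 h libraries given above, was at −0.82 (SE 0.33, adjusted p = 0.393), and H47_KO did not overlap H47_Ctrl. CYR61 was at −0.68 (SE 0.31, adjusted p = 0.47), again without overlap, and AXL at −0.65 (SE 0.26, adjusted p = 0.384), with overlap. Library 3 of H47_KO at 24 h was the lowest of its group for all 3 genes (2728, 1198 and 306 CPM). Its pair with library 1 had the largest chi-square per degree of freedom (62.5) of all replicate pairs compared. With each library left out, the CTGF value ranged from −1.17 to −0.52 and its adjusted p from 0.0895 to 0.843. The CYR61 value ranged from −1.10 to −0.35 (adjusted p 0.0750 to 0.910) and the AXL value from −0.83 to −0.43 (adjusted p 0.167 to 0.820). The TEAD factors and coactivators at 24 h lay between −0.28 (TEAD4) and 0.27 (TEAD1), with SEs of 0.16 to 0.34.

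The response to cytokines was compared by a test of the difference itself. Interaction terms of time and guide were called for 0 of 10 genes at 6, 12 and 24 h by edgeR and by DESeq2. Of all genes, edgeR called 0.00912% at 6 h and 0% at 12 h and 24 h, and DESeq2 called 41, 0 and 1 genes. At an unadjusted p under 0.05, for which no share of all genes was counted, edgeR gave 1, 2 and 0 of the 10. For CTGF the interaction was 0.67 (SE 0.47) at 6 h, 0.51 (SE 0.47) at 12 h and −0.28 (SE 0.47) at 24 h.

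The third comparison asked the same of VP64_A against VP64_Ctrl. AXL was lower in VP64_A, and before stimulation CTGF was higher and TEAD1 lower. Calls numbered 2 of 10 at 0 h, 1 at 6 h, 1 at 12 h and 0 at 24 h, beside 9.41%, 3.76%, 4.31% and 4.13% of all genes tested. For the mean of 4 times they numbered 2, AXL and TEAD1, beside 18.4% of all genes. At 24 h 2 of the 10 had an unadjusted p under 0.05 by edgeR, for which no share of all genes was counted. DESeq2 called 0 of the 10 there, beside 506 of all genes. On log2(TPM + 1) limma called 3 there, beside 337 of all genes. They were ANKRD1 (−1.20, adjusted p = 0.0382), AXL (−0.83, adjusted p = 0.023) and CTGF (−0.66, adjusted p = 0.0316), where the median of all genes was −0.25.

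**Figure D4:**
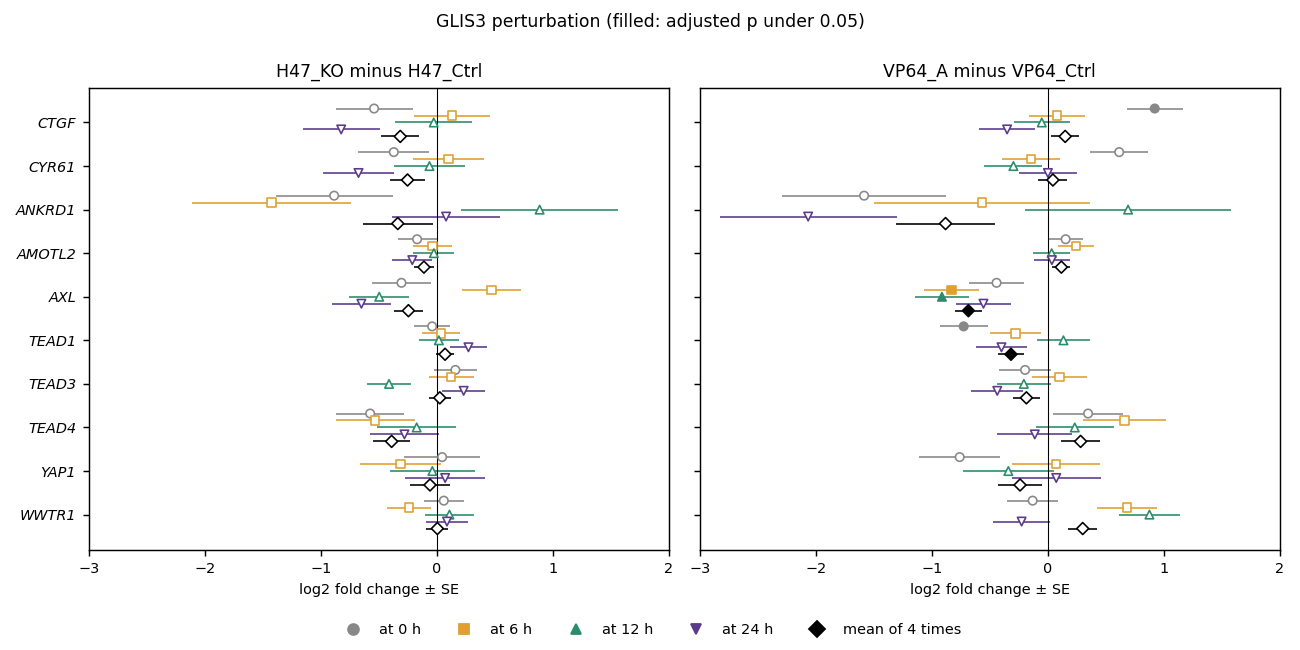
Log2 fold change (horizontal axes, ± SE) of H47_KO against H47_Ctrl and of VP64_A against VP64_Ctrl for the 10 genes at each of 4 times and for the mean of the times; filled symbols have an adjusted p under 0.05. No symbol is filled in the CRISPRko panel, and AXL lies below 0 at every time in the CRISPRa panel (−0.68 for the mean).

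AXL had CPM of 961, 987 and 662 in VP64_Ctrl and 696, 638 and 589 in VP64_A at 0 h, which overlapped. At 6 h it had 915, 1734 and 1779 against 779, 863 and 849, at 12 h 1067, 1027 and 1435 against 824, 499 and 554, and at 24 h 965, 982 and 697 against 587, 649 and 564, without overlap. The difference was −0.83 (SE 0.23, adjusted p = 0.0374) at 6 h, −0.91 (SE 0.24, adjusted p = 0.0174) at 12 h and −0.68 (SE 0.12, adjusted p = 4.73e-05) for the mean of 4 times. The mean kept its call with each library left out, between −0.75 and −0.64. The 6 h call was lost in 6 of 24 such fits (adjusted p up to 0.224, without library 3 of VP64_Ctrl at 6 h) and the 12 h call in 3 (up to 0.131, without library 3 of VP64_Ctrl at 12 h).

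CTGF before stimulation had CPM of 965, 881 and 726 in VP64_Ctrl and 1551, 1520 and 1802 in VP64_A, without overlap, a difference of 0.92 (SE 0.24, adjusted p = 0.0123). The call was lost without library 3 of VP64_A (0.83, adjusted p = 0.0717). It was also lost in a fit of only the libraries compared (adjusted p = 0.0568). At 6, 12 and 24 h the differences were 0.08, −0.05 and −0.35 and were not called. CYR61 at 0 h was at 0.62 (SE 0.25, adjusted p = 0.125), which DESeq2 called (adjusted p = 0.0458) and which was 0.32 without library 3 of VP64_Ctrl.

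TEAD1 at 0 h had CPM of 60, 49.2 and 104 in VP64_Ctrl and 41.2, 43.8 and 43.2 in VP64_A, without overlap. The difference of −0.72 (SE 0.21, adjusted p = 0.0238) was −0.36 (adjusted p = 0.386) without the library at 104. Its call was also lost without any one of the 3 libraries of VP64_A at 0 h (adjusted p between 0.0576 and 0.0888). The difference for the mean of 4 times, −0.32 (SE 0.11, adjusted p = 0.0399), was lost in 13 of 24 fits with 1 library left out, and was −0.23 (adjusted p = 0.0928) without the same library. WWTR1 at 12 h was higher in VP64_A without overlap, at 0.88 (SE 0.26, adjusted p = 0.0511). It was called by DESeq2 (adjusted p = 0.0438), with no filter on low counts (adjusted p = 0.0185) and with the replicate block (0.85, adjusted p = 0.0246). With 1 library left out it was called in 5 of 24 fits. There the value ranged from 0.66 to 1.07 and the adjusted p reached 0.322.

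For the interaction of time and VP64_A, edgeR called 0 of 10 genes at each time, beside 0.0911%, 0.264% and 0.209% of all genes. At an unadjusted p under 0.05, for which no share of all genes was counted, there were 3, 4 and 1 of the 10. DESeq2 called 2, both CTGF, beside 47, 71 and 40 of all genes at 6, 12 and 24 h. The CTGF interaction was −0.84 (SE 0.34, adjusted p = 0.424) at 6 h, −0.97 (SE 0.34, adjusted p = 0.262) at 12 h and −1.27 (SE 0.34, adjusted p = 0.176) at 24 h. The DESeq2 adjusted p was 0.0334 at 12 h and 0.000906 at 24 h. On log2(TPM + 1) limma called the 24 h term only (−1.20, adjusted p = 0.0373), beside 14 of all genes. The tools thus differ on whether the CTGF response was smaller in VP64_A. Each term subtracts the 0 h difference, at which CTGF was higher in VP64_A by 0.92. The CTGF libraries of VP64_A and VP64_Ctrl overlapped at 6 and 12 h, and lay lower in VP64_A without overlap at 24 h.

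The CRISPRko and CRISPRa values of a gene come from separate libraries and can be set side by side. For the mean of 4 times 3 of the 10 genes were higher and 7 lower in H47_KO, and 5 were higher and 5 lower in VP64_A. CTGF was at −0.32 in H47_KO and 0.15 in VP64_A, CYR61 at −0.25 and 0.04, and TEAD4 at −0.39 and 0.28, none of them called. The sign of CTGF in VP64_A varied with time, from 0.92 at 0 h to a value lower than control at 24 h. At 24 h CTGF was lower than control in both arms, without a call by edgeR. ANKRD1 at 24 h had 0.316 to 1.04 CPM in VP64_A against 1.92 to 3.89 in VP64_Ctrl. In H47_KO it had 0.707 to 1.58 against 1.61 to 2.97 CPM in H47_Ctrl at 0 h, and 1.04 to 1.61 against 0.654 to 0.736 at 12 h. None of these ANKRD1 differences was called by edgeR. AXL was at −0.25 (not called) and −0.68 (called). In H47_KO its sign varied with time, and at 6 h it was at 0.47 (SE 0.26, adjusted p = 0.508), with 907, 1260 and 832 CPM against 490, 886 and 786 in H47_Ctrl.

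Other known YAP/TAZ–TEAD target genes were listed from general knowledge, 17 in all, of which the CRISPRko fit tested 17 and the CRISPRa fit 16. This list and the Hippo list below were chosen with earlier results of these data known. NUAK2 on it is also a gene that the study chose as a target shared with GLIS3. Counts from these lists are therefore descriptions and no independent evidence. For the mean of 4 times 2 fell in H47_KO, beside 1.09% of all genes lower and 1.98% higher. In VP64_A 3 rose and 6 fell, beside 9.15% of all genes higher and 9.23% lower. NUAK2, a kinase of the AMPK family, and CCDC80, a secreted matrix protein, fell in H47_KO and rose in VP64_A. NUAK2 was at −1.07 (SE 0.12, adjusted p = 1.04e-06) in H47_KO and 0.98 (SE 0.11, adjusted p = 3.36e-08) in VP64_A. CCDC80 was at −0.45 (SE 0.09, adjusted p = 0.00127) and 1.08 (SE 0.09, adjusted p = 4.34e-11). IGFBP3, which binds insulin-like growth factors, was higher in VP64_A (1.65, SE 0.13) and TGFB2, a TGFβ ligand, lower (−1.64, SE 0.14). The list's median was 0.02 in H47_KO and −0.21 in VP64_A, where the medians of all genes were −0.01 and −0.00.

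**Figure D5:**
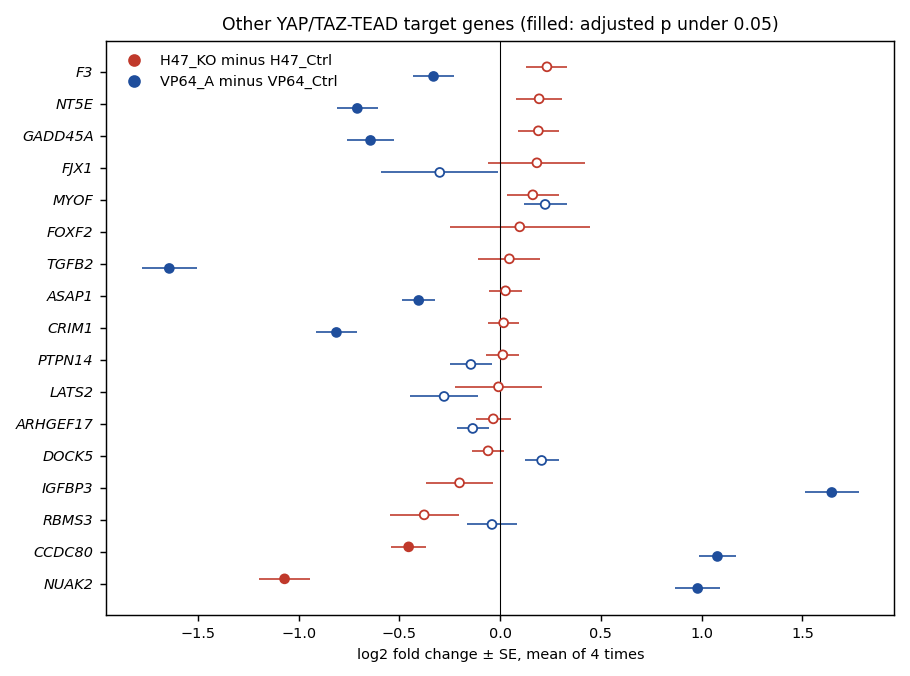
Log2 fold change for the mean of 4 times (horizontal axis, ± SE) of H47_KO against H47_Ctrl and of VP64_A against VP64_Ctrl for 17 other YAP/TAZ–TEAD target genes, ordered by the CRISPRko value; filled symbols have an adjusted p under 0.05. NUAK2 and CCDC80 are filled on opposite sides of 0, and FOXF2 was tested in the CRISPRko arm only.

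NUAK2, the gene of this list with the lowest CRISPRko value, is given by condition and is not typical of the list. Its mean normalised CPM at 12 h was 23.9 ± 2.2 (SD, n = 3) in H47_Ctrl and 6.8 ± 0.351 in H47_KO, and at 0 h 4.1 ± 1.62 in VP64_Ctrl and 11.3 ± 1.64 in VP64_A. At 24 h the differences were −0.42 (SE 0.22, adjusted p = 0.531) in H47_KO and 0.21 (SE 0.21, adjusted p = 0.711) in VP64_A. Cytokines raised it in every group, by 1.48 to 2.91 on the log2 scale. At 6 h cytokines raised 5 of 17 genes of this list in H47_Ctrl and 7 in H47_KO, and 8 of 16 each in VP64_Ctrl and VP64_A. Of all genes 10.3%, 13.2%, 16.2% and 11.4% rose in these groups at 6 h. GADD45A, a stress-induced growth arrest gene, rose by 2.12 in H47_Ctrl and 2.43 in VP64_Ctrl, and F3, tissue factor, by 1.30 and 1.50. TGFB2 rose at every time, up to 3.83 in H47_KO at 12 h.

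The Hippo kinases, adaptors and cofactors form a list of 23 genes, of which 20 were tested in each arm. At 6 h with cytokines 4 rose in H47_Ctrl, 6 in H47_KO, 8 in VP64_Ctrl and 4 in VP64_A, beside 10.3%, 13.2%, 16.2% and 11.4% of all genes that rose there, and 1 fell, PTPN14 in VP64_Ctrl (−0.94). FRMD6, an upstream FERM-domain activator of the pathway, rose in all 12 contrasts by 1.56 to 3.10, and its mean CPM went from 92.5 ± 15.2 (SD, n = 3) at 0 h to 426 ± 84.9 at 6 h in H47_Ctrl. STK4, the upstream kinase, rose at 6 h in H47_Ctrl (0.72), H47_KO (1.14) and VP64_Ctrl (1.06). WWC2, a LATS-binding scaffold, rose at 12 h in H47_KO (1.59), VP64_Ctrl (1.10) and VP64_A (1.06). The median of the list at 6 h was 0.31 in H47_Ctrl and 0.27 in VP64_Ctrl, where the medians of all genes were −0.03 and −0.05.

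Between guides 1 of the 20 was called in H47_KO for the mean of 4 times, beside 3.07% of all genes, and 4 of 20 in VP64_A, beside 18.4%. For the mean of 4 times NF2, the merlin tumour suppressor, fell in H47_KO by 0.27 (SE 0.07, adjusted p = 0.0307). In VP64_A WWC2 fell by 0.55 (SE 0.11), MOB1B, a LATS cofactor, by 0.50 (SE 0.13) and STK4 by 0.39 (SE 0.12), and VGLL4, a TEAD cofactor that competes with YAP, rose by 0.39 (SE 0.13).

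Of 9 genes at which the study assayed TEAD1 binding, the CRISPRko fit tested 8 and the CRISPRa fit 9. The study chose them as targets shared with GLIS3, so their direction is no independent evidence. It reported by ChIP–qPCR that loss of GLIS3 impaired TEAD1 binding to its targets, except at IL11, which is not on this list. It also reported that IL11 expression depended on GLIS3 or on knockdown of TEAD1 and TEAD3 together. RNA levels do not measure binding. At 6 h cytokines raised 6 of 8 in H47_Ctrl and in H47_KO, 7 of 9 in VP64_Ctrl and 6 of 9 in VP64_A, and lowered none, where 10.3%, 13.2%, 16.2% and 11.4% of all genes rose. CCL2, a monocyte chemokine, rose by 8.07 (SE 0.38) in H47_Ctrl, and NFKB2, an NF-κB subunit, by 3.14 (SE 0.47). For the mean of 4 times 1 of 8 was called in H47_KO, beside 3.07% of all genes, namely NUAK2, which is on both lists. In VP64_A 4 of 9 were called, beside 18.4% of all genes. There NUAK2, PXDN (0.48) and UPP1 (0.39) rose and CCL2 fell (−1.08, SE 0.14).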

How the data were processed

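RNA-seq libraries (Nextera XT) of 48 fibroblast samples were used. Reads were trimmed and depleted of ribosomal sequence by the authors, who used STAR on GRCh38 for alignment and Salmon for quantification. The authors deposited estimated counts, not normalised between libraries, and TPM, scaled for length and to 1 total per library; versions are not given in the sources used here. Of the estimated counts 6.38% were not whole and were rounded. All 48 columns were matched by their descriptions, and replicate numbers were taken from the titles.

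For each arm, 1 model with 8 groups took in all 24 libraries, in edgeR 4.0.16 under R 4.3.3 (TMM, filterByExpr with minimum count 10 and total 15, two-sided quasi-likelihood F test), with contrasts at each time, over the mean of times, against 0 h, and their interactions. A call is an adjusted p under 0.05 after Benjamini-Hochberg correction across every gene tested. The authors used DESeq2. Alternatives were DESeq2 1.42.0, its size factors in edgeR, no filter, a replicate block, a fit restricted to the libraries compared, each library left out, and limma 3.58.1 applied to TPM after adding 1 or 0.1 and taking log2. The fits were run on simulated counts with the same dispersion for every gene and no library that stood apart. That check therefore says nothing on how the fits behave with libraries that stand apart. Among 48 replicate pairs 0 were identical (lowest chi-square per degree of freedom 3.59). Intervals from depth cover counting error only.

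The members and lists were chosen with earlier results of these data known. All members were named, and from each list the up to 4 called genes with the largest change in a comparison. For likeness, each member's mean log2(CPM + 1) over the 16 conditions, centred within arms, was correlated with those of all genes tested in both arms.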

Additional observations from a re-analysis of the deposited data

Results flagged for a closer look

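The response of F3, tissue factor, at 12 h differed between VP64_A and VP64_Ctrl by the test of the difference itself, with an interaction of 1.34 on the log2 scale (SE 0.29, edgeR adjusted p = 0.032). Its mean normalised CPM was 44 ± 2.27 (SD, n = 3) at 0 h and 187 ± 77.4 at 12 h in VP64_A, and 97.7 ± 9.94 and 164 ± 17 in VP64_Ctrl. Before stimulation F3 was lower in VP64_A by 1.15 (SE 0.21, adjusted p = 0.000279), and at 12 h the groups differed by 0.18 (SE 0.20, adjusted p = 0.76). In the CRISPRko arm the interaction at 12 h was 0.64 (SE 0.29, adjusted p = 0.753). No other interaction of the 10 genes or of the listed genes was called by edgeR. Alternative fits and fits with 1 library left out were not examined for F3. For this 12 h term edgeR called 29 of all genes, and 1 in a fit of only the libraries compared.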

How the results depend on the processing

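Counts of called members kept within 1.5 times under the alternatives, with these exceptions. The H47_KO response had 11 calls and 7 in a fit of only the libraries compared. The VP64_A response had 8 calls and 5 with limma on log2(TPM + 1) and on log2(TPM + 0.1). VP64_A against VP64_Ctrl for the mean of 4 times had 2 calls and 1 on log2(TPM + 0.1). The interaction of time and VP64_A had 0 calls, 2 with DESeq2 and 1 on log2(TPM + 1). With 1 library left out, calls ranged from 6 to 10 in the H47_Ctrl response, 7 to 12 in H47_KO, 10 to 14 in VP64_Ctrl and 5 to 10 in VP64_A, from 3 to 5 for VP64_A against VP64_Ctrl at each time, from 1 to 3 for its mean, and were 0 for both CRISPRko comparisons and both interactions. The lowest H47_KO count, 7, was without library 1 at 0 h, and the lowest VP64_A count, 5, without library 1 or 3 at 0 h. Without library 3 of VP64_Ctrl at 0 h, the VP64_Ctrl response had 10 calls. A fit of only the libraries compared gives no separate value for the mean of 4 times, which uses all of them.

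On the TPM scale the median of all genes moved by up to −0.81 on log2(TPM + 0.1) and −0.65 on log2(TPM + 1), so changes there are read relative to it. The AMOTL2 response in VP64_Ctrl at 6 h was −0.29 under both, which is 0.36 and 0.52 above the medians of all genes. Of 410 alternative fits of the values named, 352 kept call and direction, 44 lost a call, 12 gained one and 2 reversed.

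Replicate numbers did not pair the libraries. Same-numbered libraries of an arm correlated between −0.049 and 0.192 in their deviations, above 0.1 in 6 of 24 pairs, and 10 of 24 matched their own number best. With the replicate block there were 8 calls in the H47_Ctrl response, 10 in H47_KO, 13 in VP64_Ctrl and 9 in VP64_A, 5 for VP64_A against VP64_Ctrl at each time, 2 for its mean and 0 for the CRISPRko comparisons and the interactions. Depth limits ANKRD1, with at most 48 counts, TEAD4 and YAP1 the most.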

Other observations

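Across the 16 conditions, with means centred within each arm, the pattern of CTGF was most like that of MYH9 (Pearson r = 0.98), the heavy chain of non-muscle myosin, and MT2A (0.97), a metallothionein. CYR61 was most like FN1 (0.97), fibronectin, and TPM1 (0.96), tropomyosin. TEAD1 was most like SPIN1 (0.96) and LIMCH1 (0.93), TEAD3 like EML1 (0.92) and RUSC2 (0.91), and TEAD4 like VRK1 (0.89) and GINS2 (0.89), both genes of dividing cells. WWTR1 was most like C11orf1 (0.93) and MRPL48 (0.92), YAP1 like MAML2 (0.89) and SON (0.88), AMOTL2 like DDX5 (0.92) and JAZF1 (0.92), AXL like ENPP1 (0.88) and C12orf75 (0.86), and ANKRD1 like CCDC109B (0.91) and RUNDC3B (0.88). Each is the highest of 10681 genes over 16 points that share libraries and times, and is a description.

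Among the members themselves CTGF and CYR61 had r = 0.81, CYR61 and TEAD3 0.69, and CTGF and TEAD3 0.65. CTGF and WWTR1 had r = −0.81, CYR61 and WWTR1 −0.63, and TEAD1 and WWTR1 0.67. YAP1 and WWTR1 had r = 0.03.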
